A study of Mus musculus with 9 samples.

Results

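The genes described here are the matrix metalloproteinases (Mmp), the tissue inhibitors of metalloproteinases (Timp) and the Adamts proteases of mouse embryonic fibroblasts in which copper uptake was reduced. They were taken as every gene row whose symbol is Mmp with a number, Timp1 to Timp4, or Adamts with a number, which gave 46 genes of 52661. There were 23 Mmp, 4 Timp and 19 Adamts genes. RNA sequencing covered 9 libraries in 3 groups of 3. The first group was Ctr1 -/- fibroblasts kept for 48 hours in bathocuproine disulfonic acid (BCS), a copper chelator, at 500 uM by the sample labels and at 500 mM by the series record, and is called Ctr1-null + BCS. The second was Ctr1 -/- fibroblasts without chelator, called Ctr1-null, and the third was wild type fibroblasts. Ctr1, encoded by Slc31a1, brings copper into the cell across its outer membrane. All cells were described as isogenic, came from C57BL/6 embryos, were immortalised with T/t antigen and grew in DMEM with modified N2, EGF and FGF-2. The Ctr1 -/- libraries carry the word Floxed in their titles, and no Cre driver, clone number or embryo age is given. Nothing in the labels says that libraries of a group were grown separately, so the p-values measure a spread between libraries that may be technical. Wild type cells with BCS were not analysed here.

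Mmp and Adamts proteins are zinc-dependent endopeptidases that are made as inactive precursors and cut collagens, proteoglycans and other proteins of the extracellular matrix. Some Mmp proteins are secreted and some are anchored in the cell membrane, whereas Adamts proteins are secreted and bind matrix through thrombospondin repeats. Timp proteins bind the active site of the proteases and block it. Fibroblasts are a main source of all 3 families in connective tissue. A group of Mmp genes that are induced by growth factors and inflammatory signals, among them the stromelysin Mmp3 and the collagenase Mmp13, carry a binding site for the transcription factor AP-1 just before their start.

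The promoters of 3 such genes are shown because Mmp3 and Mmp13 varied widely between libraries of the same group, as described further on, and Mmp10 is a second stromelysin near them. All 3 lie in a cluster of 10 Mmp genes at chr9:7272514-7699585. Sequences and windows are from RefSeq (GRCm38.p6), which held a window for 32 of the 46 genes. Each sequence below is the 150 bases before the start on the plus strand, 5′ to 3′, with a match to the AP-1 motif TGACTCA, or to its reverse complement TGAGTCA, in capitals.
Mmp3: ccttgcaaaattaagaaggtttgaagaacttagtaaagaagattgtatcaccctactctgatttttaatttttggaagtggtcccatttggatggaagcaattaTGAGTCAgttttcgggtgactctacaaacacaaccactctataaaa
Mmp13: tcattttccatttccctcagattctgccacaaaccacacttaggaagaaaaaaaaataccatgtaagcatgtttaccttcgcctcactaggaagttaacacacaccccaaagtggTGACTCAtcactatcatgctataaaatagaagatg
Mmp10: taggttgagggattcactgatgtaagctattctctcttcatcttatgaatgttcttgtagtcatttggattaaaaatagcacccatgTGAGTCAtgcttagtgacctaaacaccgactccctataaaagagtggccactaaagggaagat
The Mmp3 stretch is chr9:7445672-7445821, the Mmp13 stretch is chr9:7272364-7272513 and the Mmp10 stretch is chr9:7502192-7502341. The match ended 40 bases before the start of Mmp3, 29 before that of Mmp13 and 57 before that of Mmp10. Searching both strands over 250 bases before the start, 7 of the 10 genes in the cluster held the motif (Mmp13, Mmp12, Mmp1b, Mmp3, Mmp1a, Mmp10 and Mmp7), and none of the 22 other Mmp, Timp and Adamts genes with a window did. For comparison, 5.16% of 27025 genes with a window held it. A match is a run of letters and says nothing about binding in these cells. Mmp1a and Mmp7 held the motif and had no counts in any library.

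A few genes made up most of the RNA of each family. Of the 46 genes, 31 passed the filter on low counts and could be tested (13 Mmp, 4 Timp and 14 Adamts). Another 12 had counts but too few to test, among them Mmp9 (gelatinase B), Mmp8 (a collagenase of neutrophils), Mmp10 and Adamts13, which cuts von Willebrand factor. Mmp1a, Mmp7 and Mmp20 had 0 counts in all 9 libraries, which allows up to 3 counts or 0.0546 to 0.0811 CPM per library. CPM values are counts relative to the library total after TMM scaling, and levels of different genes are compared as CPM per kb of exon. By mean level over all libraries, Timp2 came first with 237 CPM per kb, followed by Mmp2 with 181 and Timp1 with 129. Adamts1 had 72.2 CPM per kb, Mmp14 had 58.7, Timp3 had 28.3 and Adamts5 had 14.5. The other tested genes ranged down to 0.0315 CPM per kb for Mmp25. The length used matters for this order, since with the longest transcript in place of all exons Mmp14 had 108 CPM per kb and Timp3 had 48.8.

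**Figure D1:**
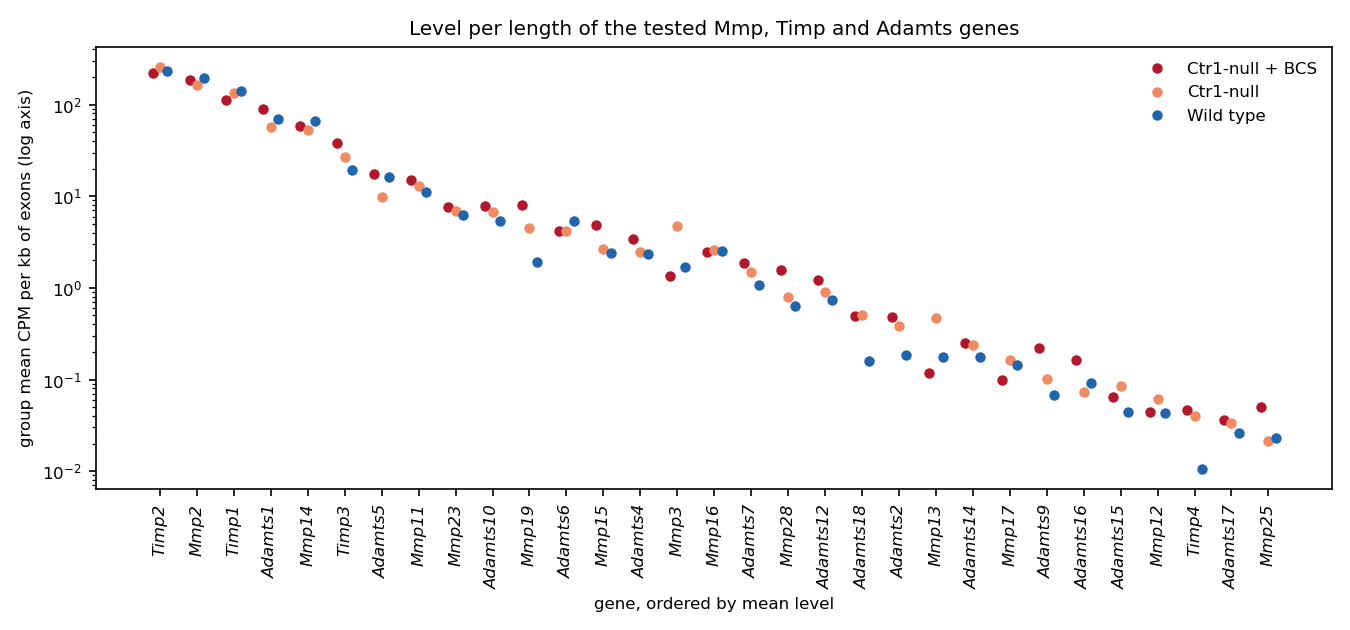
Group mean level of each of the 31 tested genes in CPM per kb of exon on a log axis, ordered by the mean over all libraries, with one point per group. Timp2, Mmp2 and Timp1 lead, and the order spans from 237 CPM per kb for Timp2 to 0.0315 for Mmp25.

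Each family was dominated by few genes in every library. Mmp2 made up 61.3 to 69.0% of the summed Mmp level per kb, and Mmp2 with Mmp14 made up 84.4 to 91.4%. Adamts1 made up 65.3 to 70.7% of the Adamts sum and Timp2 made up 55.2 to 63.8% of the Timp sum. The Mmp sum was 285 ± 25.7 CPM per kb in Ctr1-null + BCS, 251 ± 46.5 in Ctr1-null and 288 ± 25.2 in wild type (SD, n = 3 each). The Timp sum was 369 ± 12.4 in Ctr1-null + BCS, 417 ± 26.5 in Ctr1-null and 396 ± 70.3 in wild type. The Adamts sum was 127 ± 19.6 in Ctr1-null + BCS, 84.4 ± 29.1 in Ctr1-null and 102 ± 6.08 in wild type. The ratio of the Timp to the Mmp sum was 1.39, 1.39 and 1.13 in the Ctr1-null + BCS libraries, 1.94, 1.62 and 1.51 in the Ctr1-null libraries and 1.51, 1.31 and 1.29 in the wild type libraries. The chelated libraries lay below all Ctr1-null libraries in that ratio and overlapped with wild type. These sums describe the libraries and were not tested.

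Libraries held 38962036 to 57206337 counts. Slc31a1 had 3.24, 2.54 and 1.69 CPM in Ctr1-null + BCS, 2.54, 3.88 and 1.40 CPM in Ctr1-null and 56.1, 54.8 and 54.9 CPM in wild type, so the genotype labels of all 9 libraries held for that gene. It overlapped between the groups without Ctr1 and so cannot check which of those libraries had BCS. The fibroblast markers Col1a1, Fn1 and Vim were abundant, and summed fibroblast markers were 16904 to 20360 CPM in Ctr1-null + BCS, 15972 to 19130 in Ctr1-null and 17066 to 19305 in wild type, although 2 of 12 markers stayed under 1 CPM in every library (Thy1 averaged 0.407 CPM and Lum 0.0541 CPM). Summed markers of macrophages, which also make Mmp proteins, were 18.9 to 26.5 CPM in Ctr1-null + BCS, 16.0 to 22.1 in Ctr1-null and 10.9 to 18.6 in wild type, with 5 of 8 markers under 1 CPM in every library and the defining marker Adgre1 at 0 in all. Neutrophil markers summed to at most 0.390 CPM in any library. Summed neural markers were 178 to 203 CPM in Ctr1-null + BCS, 222 to 259 in Ctr1-null and 212 to 300.4 in wild type, so the chelated libraries lay below both other groups. Epithelial markers summed to 2.16 to 2.55 CPM in Ctr1-null + BCS, 1.18 to 3.95 in Ctr1-null and 2.33 to 9.80 in wild type. Endothelial markers summed to 23.8 to 32.0 CPM in Ctr1-null + BCS, 26.1 to 33.9 in Ctr1-null and 27.5 to 38.1 in wild type. Summed cartilage and bone markers, whose cells use Mmp13 and the Adamts aggrecanases, were 164 to 169 CPM in Ctr1-null + BCS, 131 to 216 in Ctr1-null and 97.6 to 140 in wild type. Summed fat cell markers, 4 of 6 of them testable, were 67.3 to 81.7 CPM in Ctr1-null + BCS, 58.7 to 85.5 in Ctr1-null and 24.4 to 30.3 in wild type. For the macrophage, cartilage and bone, and fat cell sums the chelated libraries lay above wild type and overlapped with Ctr1-null. The marker with the highest mean was Cd68, Col2a1 and Pparg in these lists and Nes in the neural list. In RNA from whole cultures, fewer cells of a type and less RNA per cell cannot be told apart, and the part of these markers in the results below was not tested.

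Wild type replicate 1 stood apart for these families. It was more than 2-fold higher than both other wild type libraries for 6 of the 31 tested genes (Mmp3, Mmp13, Mmp19, Adamts2, Adamts7 and Adamts12), a share of 19.4%, against 2.70% of all 18408 tested genes. No Ctr1-null + BCS library stood apart in that way for any of the 31 genes. In Ctr1-null, replicate 1 was high for Mmp13 and low for Adamts2, replicate 2 was high for Adamts5 and low for Mmp3 and Mmp13, and replicate 3 was high for Adamts2. Calls are therefore given with all libraries and also, where they change, without wild type replicate 1. That library was singled out on the values of these same genes, so calls without it are not independent support.

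The first comparison sets Ctr1-null + BCS, cells that lacked Ctr1 and were also given BCS, against wild type. Copper levels were not read here. Genotype and BCS differ together, and no clone number is given. Loss of Ctr1, BCS and other differences between the cells of these groups therefore cannot be told apart in this comparison. There, 7 of the 31 tested genes rose in Ctr1-null + BCS and none fell (adjusted p under 0.05 by edgeR's quasi-likelihood test, with Benjamini-Hochberg adjustment over all 18408 genes). The 7 were the proteases Mmp28, Mmp15 and Mmp19, the inhibitors Timp3 and Timp4, and Adamts9 and Adamts18. That is 22.6% of the tested genes, against 15.8% of all genes, of which 8.56% were higher and 7.28% lower. At an unadjusted p under 0.05 there were 11 of 31, all higher, against 32.9% of all genes and 17.0% of all genes in the higher direction. All 3 Ctr1-null + BCS libraries lay outside the wild type range for 14 of 31 genes, 12 above it and 2 below it (Adamts6 and Mmp14), against 37.1% of all genes and 20.0% above the range. The log2 fold change was above 0 for 22 of 31, against 50.7% of all genes, and its median was 0.52 over the 31 genes and 0.01 over all genes. By family, 13 of 14 Adamts genes, 7 of 13 Mmp genes and 2 of 4 Timp genes had a log2 fold change above 0. These counts describe the genes abundant enough to test and not all 46. Timp4, one of the 7 called genes, passed the filter only through libraries without Ctr1. Mmp25, among the 11 and the 12, passed it only through the chelated libraries. Neither could readily have been found lower in Ctr1-null + BCS, so their direction is no evidence.

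**Figure D2:**
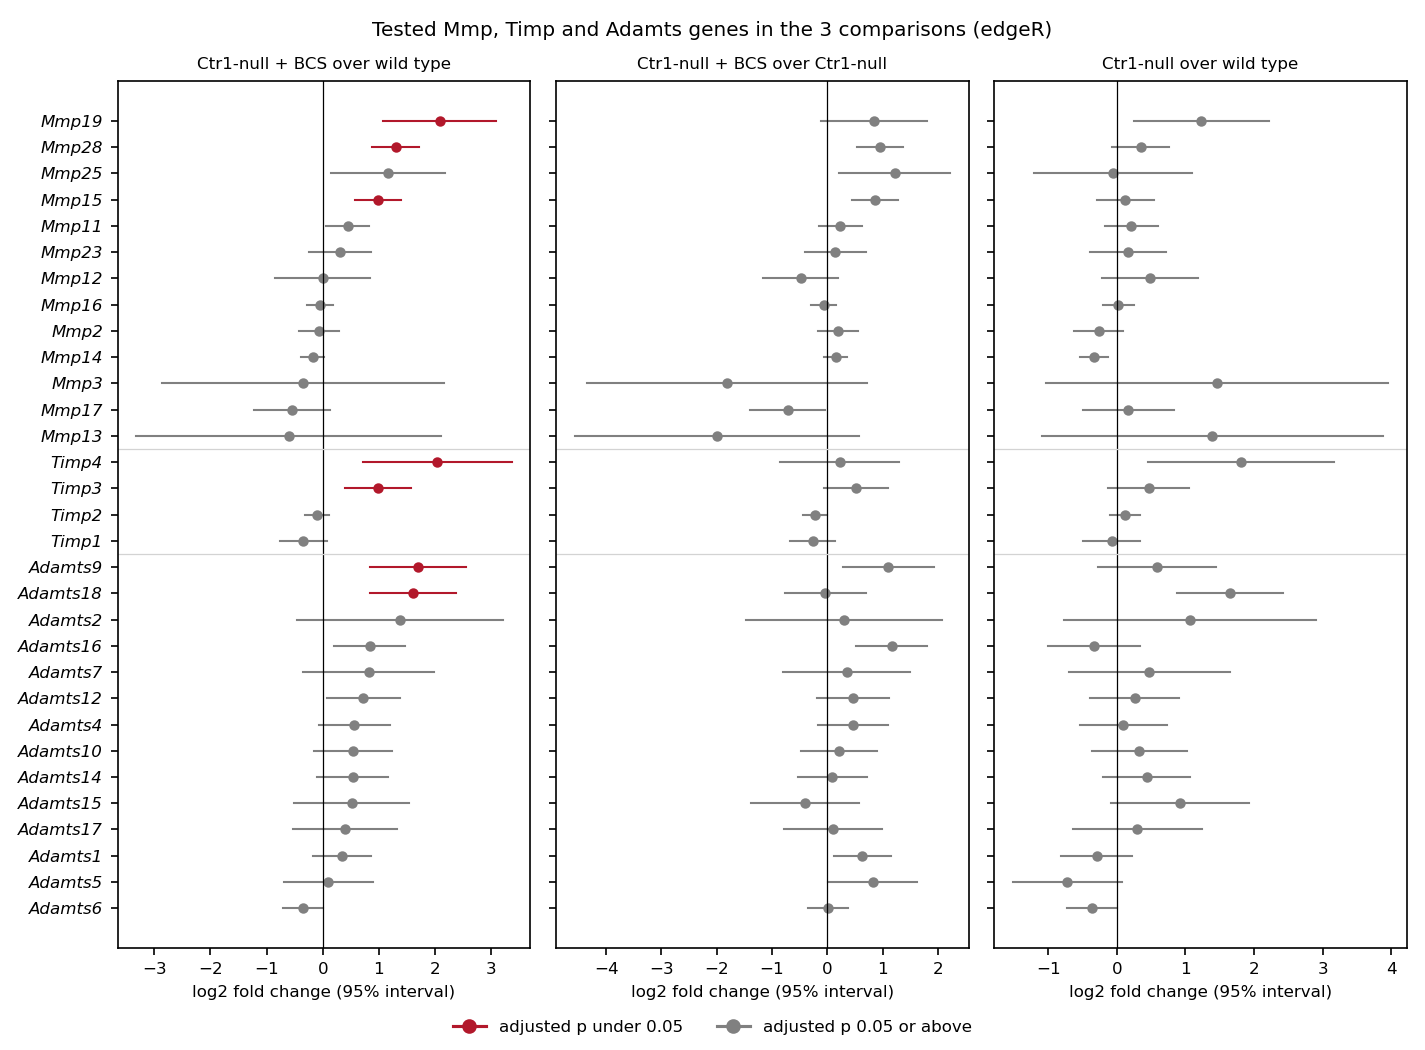
Log2 fold change with its 95% interval for the 31 tested genes in the 3 comparisons, from edgeR, with Mmp, Timp and Adamts genes in separate blocks. The 7 genes with an adjusted p under 0.05, drawn in red, are all in the left panel and all above 0, and Mmp3 and Mmp13 have the widest intervals in every panel.

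Among the proteases, Mmp28 (epilysin, chr11:83440768-83463071, minus strand), a secreted Mmp found in skin and other epithelia, had the smallest p. It had 5.79, 6.19 and 6.05 CPM in Ctr1-null + BCS, 2.64, 2.95 and 3.72 CPM in Ctr1-null and 2.99, 2.22 and 2.10 CPM in wild type. The 3 chelated libraries lay close together and above all 6 others. Against wild type the chelated cells had a log2 fold change of 1.30 ± 0.19 (SE), a 2.46-fold difference (adjusted p = 0.00592), and the call held in every alternative run. Mmp15 (membrane-type 2 Mmp, chr8:95352268-95375080, plus strand), which is anchored in the cell surface, had 29.5, 24.5 and 23.8 CPM in Ctr1-null + BCS, 9.81, 17.1 and 15.9 CPM in Ctr1-null and 13.5, 13.2 and 12.5 CPM in wild type. Again the chelated libraries were the 3 highest, with a log2 fold change of 0.99 ± 0.19 against wild type (adjusted p = 0.0115).

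Mmp19 (chr10:128790910-128800824, plus strand), a secreted protease that cuts basement membrane proteins, had 23.4, 25.9 and 36.1 CPM in Ctr1-null + BCS, 9.75, 16.2 and 21.3 CPM in Ctr1-null and 12.1, 3.81 and 4.13 CPM in wild type. The chelated libraries did not overlap with either other group, whereas Ctr1-null and wild type overlapped through wild type replicate 1. Ctr1-null + BCS against wild type gave a log2 fold change of 2.08 ± 0.45, a 4.24-fold difference (adjusted p = 0.0178). The gene shares 789 bp of exon with Tmem198b on the other strand, which averaged 51.2 CPM, and the labels do not say whether counting used the strand. Tmem198b itself had a log2 fold change of 0.10 ± 0.12 in the same comparison.

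Of the inhibitors, Timp3 (chr10:86300372-86349506, plus strand), which binds to the matrix and also blocks several Adamts and Adam proteases, had 304, 274 and 363 CPM in Ctr1-null + BCS, 137, 278 and 241 CPM in Ctr1-null and 210.1, 137 and 129 CPM in wild type. All chelated libraries lay above wild type, and Ctr1-null overlapped with both other groups. Ctr1-null + BCS against wild type gave 0.98 ± 0.26 on the log2 scale, a 1.98-fold difference (adjusted p = 0.0347). Timp4 (chr6:115241892-115252205, minus strand), an inhibitor best known from heart muscle, was barely present, with 18, 6 and 19 counts in Ctr1-null + BCS, 8, 12 and 15 counts in Ctr1-null and 5, 1 and 3 counts in wild type. The 6 libraries without Ctr1 lay above the 3 wild type libraries by CPM, the lowest at 0.114 CPM in Ctr1-null + BCS and the highest wild type library at 0.104 CPM. The log2 fold change in Ctr1-null + BCS against wild type was 2.04 ± 0.59 (adjusted p = 0.0446), a value that rests on these few counts. Timp4 passed the filter only through libraries without Ctr1.

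Of the Adamts genes, Adamts9 (chr6:92772699-92943492, minus strand), which cuts the proteoglycans versican and aggrecan, had 2.91, 2.67 and 4.36 CPM in Ctr1-null + BCS, 0.753, 1.94 and 1.92 CPM in Ctr1-null and 1.39, 0.784 and 0.874 CPM in wild type. The chelated libraries were the 3 highest, and their log2 fold change over wild type was 1.70 ± 0.38, a 3.24-fold difference (adjusted p = 0.0203). Adamts18 (chr8:113697126-113848738, minus strand), which takes part in the branching of organs in mouse embryos, had 5.02, 3.99 and 6.07 CPM in Ctr1-null + BCS, 6.01, 5.06 and 4.38 CPM in Ctr1-null and 2.72, 1.08 and 1.12 CPM in wild type. Both groups without Ctr1 lay above wild type and overlapped with each other. Its log2 fold change was 1.61 ± 0.34 in Ctr1-null + BCS against wild type (adjusted p = 0.0176), 1.64 ± 0.34 in Ctr1-null against wild type (adjusted p = 0.0988) and -0.03 ± 0.33 in Ctr1-null + BCS against Ctr1-null, with a 95% interval of -0.77 to 0.70.

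**Figure D3:**
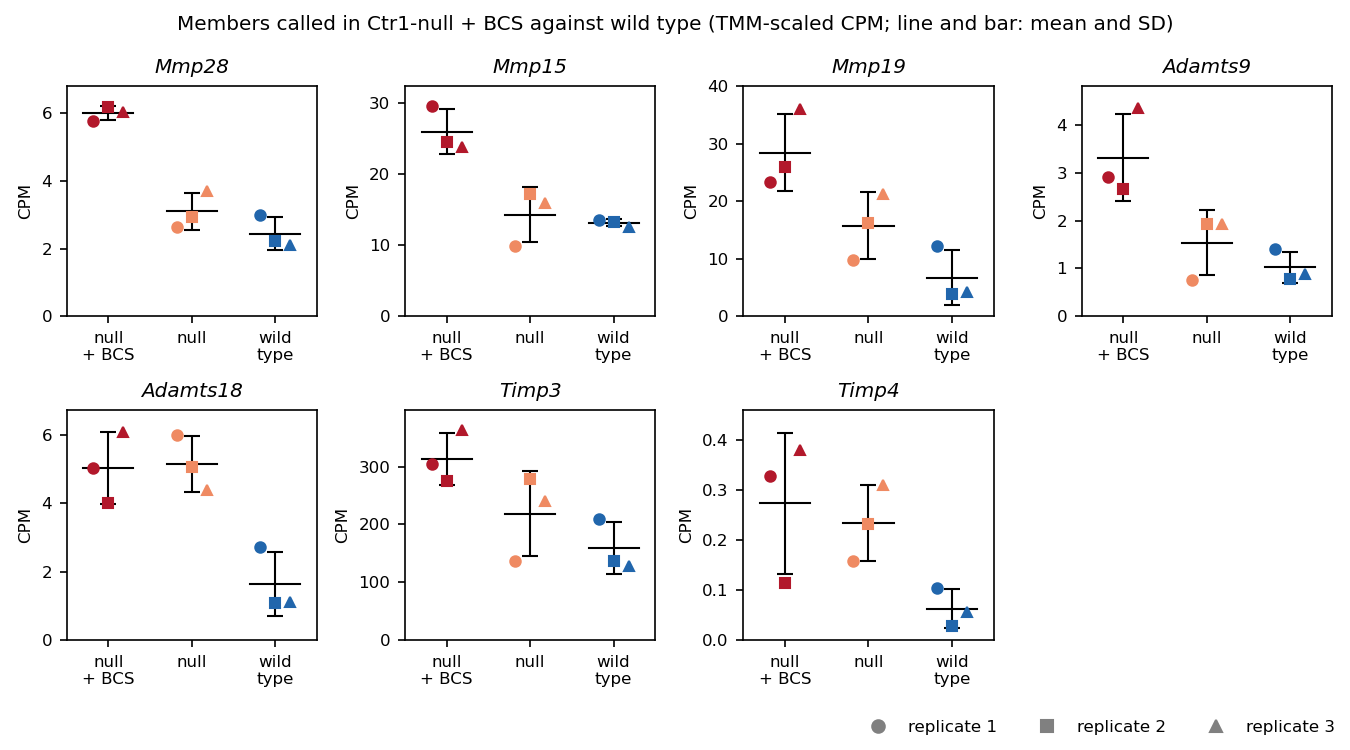
CPM in each library for the 7 genes called in Ctr1-null + BCS against wild type, with symbols for the replicate number, a line at the group mean and a bar of 1 SD. The chelated libraries are the 3 highest for Mmp28, Mmp15, Mmp19 and Adamts9, and Adamts18 and Timp4 are lower in wild type than in both groups without Ctr1.

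Apart from Mmp28, these calls depended on single libraries. Without Ctr1-null + BCS replicate 1, Mmp28 and Mmp19 were called (2 genes, against 4.24% of all genes in that fit). Without Ctr1-null + BCS replicate 3, Mmp28 and Mmp15 were called (2 genes, against 3.41% of all genes), and the same 2 were called without wild type replicate 2 (3.41% of all genes). Without wild type replicate 3, Mmp28 alone was called (1 gene, against 3.01% of all genes). Timp3 was also lost without Ctr1-null + BCS replicate 2 (adjusted p = 0.0550), and Timp4 without Ctr1-null replicate 2 or 3 (adjusted p = 0.0694 and 0.0560). Over these fits the adjusted p reached 0.0740 for Adamts18, 0.0863 for Adamts9, 0.0565 for Mmp15, 0.0740 for Mmp19, 0.130 for Timp3 and 0.157 for Timp4, while no log2 fold change of the 7 genes changed sign. Without Ctr1-null replicate 3, Adamts6 fell in Ctr1-null + BCS against wild type, with a log2 fold change of -0.36 (adjusted p = 0.0468). Without wild type replicate 1, 12 of 32 tested genes were called, all higher, against 31.0% of all genes. Those calls are not independent support, since that library was picked for high values of Mmp3, Adamts2, Adamts7 and Adamts12, among others. The additions were Adamts2 (2.96, adjusted p = 0.0169), Adamts7 (1.66, adjusted p = 0.0176), Adamts10 (0.92, adjusted p = 0.0273), Adamts12 (1.19, adjusted p = 0.00201) and Mmp3 (3.49, adjusted p = 0.0101), each with its log2 fold change.

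Mmp2, Mmp14, Mmp11, Timp1, Timp2, Adamts1 and Adamts5 did not pass the test in this comparison. Mmp2 (gelatinase A), which cuts basement membrane collagen, had 596, 598 and 687 CPM in Ctr1-null + BCS, 412, 575 and 656 CPM in Ctr1-null and 736, 607 and 633 CPM in wild type. The 3 groups overlapped, and the log2 fold change in Ctr1-null + BCS against wild type was -0.07 ± 0.16, with a 95% interval of -0.43 to 0.28. Mmp14, the membrane protease that activates Mmp2 together with Timp2, had 335, 332 and 372 CPM in Ctr1-null + BCS, 275, 333 and 328 CPM in Ctr1-null and 389, 388 and 399 CPM in wild type. All 6 libraries without Ctr1 lay below the 3 wild type libraries, by a log2 fold change of -0.18 ± 0.09 with BCS (adjusted p = 0.204) and -0.33 ± 0.09 without (adjusted p = 0.141). Mmp11 (stromelysin-3) had 40.7, 33.3 and 52.2 CPM in Ctr1-null + BCS, 28.2, 38.9 and 40.1 CPM in Ctr1-null and 32.6, 29.5 and 30.6 CPM in wild type, with a log2 fold change of 0.45 ± 0.17 in Ctr1-null + BCS against wild type (adjusted p = 0.105).

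Timp2, the partner of Mmp14, had 918, 834 and 805 CPM in Ctr1-null + BCS, 951, 1054 and 990.4 CPM in Ctr1-null and 1026, 849 and 873 CPM in wild type. The chelated libraries lay below all Ctr1-null libraries and overlapped with wild type. Timp1, an inhibitor of secreted Mmp proteins, had 92.8, 112 and 91.7 CPM in Ctr1-null + BCS, 113, 106 and 138 CPM in Ctr1-null and 167, 103 and 107 CPM in wild type, with all groups overlapping. Adamts1, which cuts versican and aggrecan, had 448, 415 and 551 CPM in Ctr1-null + BCS, 204, 431 and 278 CPM in Ctr1-null and 339, 382 and 398 CPM in wild type. The chelated libraries were above all wild type libraries, by a log2 fold change of 0.34 ± 0.23 (adjusted p = 0.336), and Ctr1-null replicate 2 fell among them. Adamts5, the main aggrecanase of mouse cartilage, had 181, 165 and 216 CPM in Ctr1-null + BCS, 58.9, 178 and 81.4 CPM in Ctr1-null and 125, 201 and 199 CPM in wild type. Its Ctr1-null libraries 1 and 3 were the 2 lowest of the 9.

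**Figure D4:**
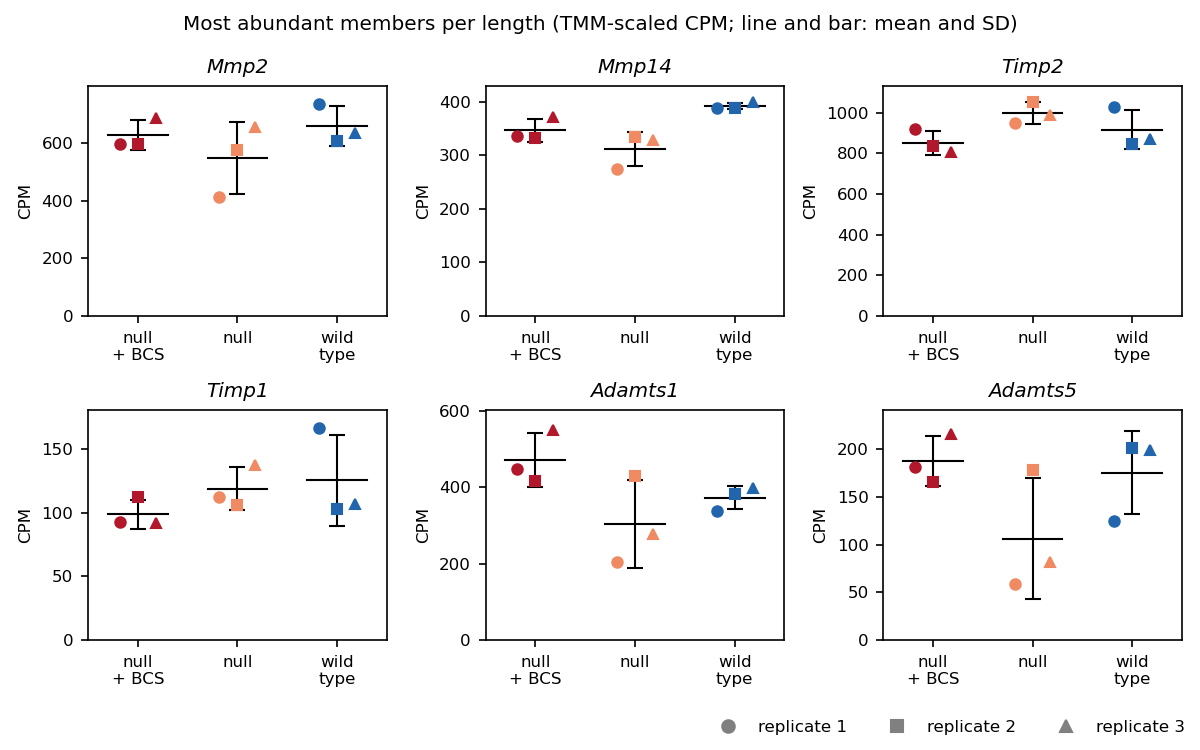
CPM in each library for 6 of the most abundant genes per kb, with symbols for the replicate number, a line at the group mean and a bar of 1 SD. Mmp14 is at 275 to 372 CPM in the libraries without Ctr1 and at 388 to 399 CPM in wild type, and Adamts1 and Adamts5 are spread most widely in Ctr1-null.

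Of the cluster genes shown by sequence above, Mmp3 and Mmp13 varied widely between libraries within Ctr1-null and within wild type. Mmp3, a stromelysin with a broad set of matrix substrates, had 108, 168 and 103 counts (1.97, 3.18 and 2.05 CPM) in Ctr1-null + BCS, 687, 136 and 437 counts (13.6, 2.64 and 9.03 CPM) in Ctr1-null and 419, 8 and 11 counts (8.71, 0.216 and 0.204 CPM) in wild type. Wild type replicate 1 was thus among the high libraries, and both other wild type libraries were the lowest of all. Mmp13, the main collagenase of rodent tissue, had 9, 20 and 20 counts (0.164, 0.379 and 0.398 CPM) in Ctr1-null + BCS, 132, 11 and 45 counts (2.62, 0.213 and 0.929 CPM) in Ctr1-null and 64, 2 and 1 counts (1.33, 0.0541 and 0.0186 CPM) in wild type. The same 3 libraries were highest for both genes. Mmp10, a stromelysin close to Mmp3 in sequence, had 0, 2 and 1 counts in Ctr1-null + BCS, 7, 1 and 4 counts in Ctr1-null and 2, 0 and 1 counts in wild type and was not tested. How reads shared by similar Mmp genes were divided is not given in the sources used here.

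Neither gene passed the test in any comparison. Between Ctr1-null + BCS and wild type, the log2 fold change was -0.35 ± 1.12 for Mmp3 (adjusted p = 0.859) and -0.60 ± 1.21 for Mmp13 (adjusted p = 0.770). Between Ctr1-null + BCS and Ctr1-null it was -1.81 ± 1.13 for Mmp3, with a 95% interval of -4.34 to 0.72, and -2.00 ± 1.15 for Mmp13, with an interval of -4.57 to 0.58. Between Ctr1-null and wild type it was 1.46 ± 1.12 for Mmp3 and 1.39 ± 1.11 for Mmp13. Without wild type replicate 1, Mmp3 rose in both groups without Ctr1, by 3.49 with BCS (adjusted p = 0.0101) and 5.31 without it (adjusted p = 0.00320). The ratios that follow are against the 2 wild type libraries left after the one high for both genes was removed. That removal used the values of these same genes and raises the fold changes and ratios. The exact 95% intervals of the ratios cover counting error only. Pooled over libraries, Mmp3 had 11.5 times the level of those 2 libraries in Ctr1-null + BCS (7.24 to 19.3) and 40.0 times in Ctr1-null (25.5 to 66.7). For Mmp13 the fitted change without that library was 3.13 with BCS (adjusted p = 0.137) and 5.13 without it (adjusted p = 0.0265), but only 3 wild type counts remained. The pooled ratio of Mmp13 to those wild type libraries was 9.39 in Ctr1-null + BCS (3.03 to 47.1) and 37.8 in Ctr1-null (12.7 to 185). With all 3 wild type libraries neither gene was called, as given above.

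**Figure D5:**
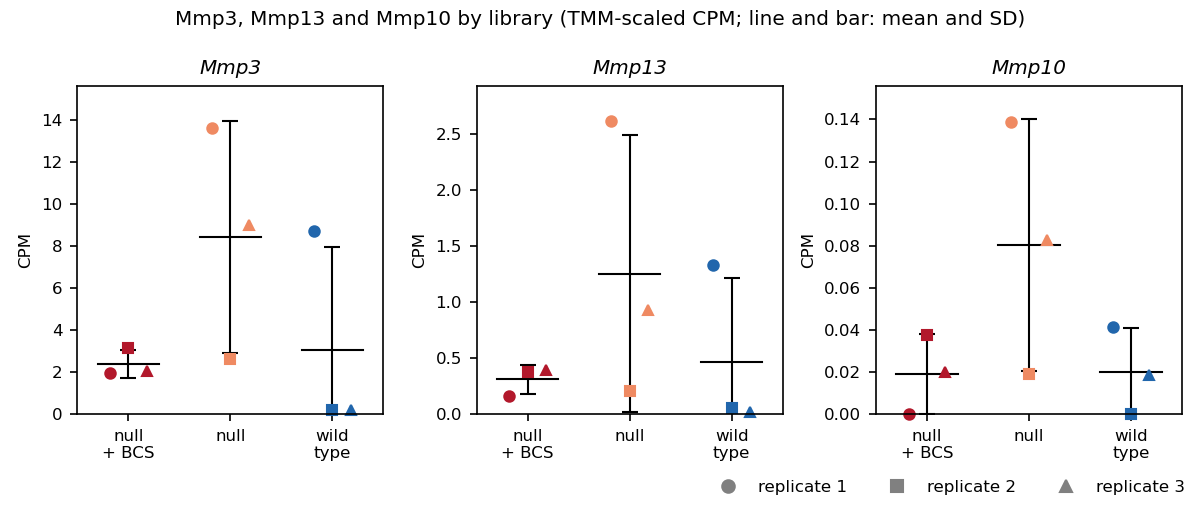
CPM in each library for Mmp3, Mmp13 and Mmp10, with symbols for the replicate number, a line at the group mean and a bar of 1 SD, which ends at the axis where it would pass below 0. Ctr1-null replicates 1 and 3 and wild type replicate 1 are the 3 highest libraries for Mmp3 and Mmp13.

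The second comparison asks what BCS changed in cells that already lacked Ctr1. None of the 31 genes passed the test in edgeR, against 0.0543% of all genes (10 genes). At an unadjusted p under 0.05 there were 9 (7 higher and 2 lower) against 14.7% of all genes, and 8 did not overlap between groups against 24.3% of all genes. The median log2 fold change was 0.21 over the 31 genes and 0.00 over all genes. The genes higher at an unadjusted p under 0.05 were Mmp28 (0.96 ± 0.18, adjusted p = 0.0924), Mmp15 (0.86 ± 0.18, adjusted p = 0.102), Adamts16 (1.17 ± 0.29, adjusted p = 0.138), Adamts9 (1.11 ± 0.37), Mmp25 (1.22 ± 0.45), Adamts1 (0.63 ± 0.23) and Adamts5 (0.82 ± 0.36), each with its log2 fold change and SE. Timp2 (-0.23 ± 0.10) and Mmp17 (-0.72 ± 0.30) were lower. Adamts16, a relative of Adamts18, had 1.00, 0.909 and 1.45 CPM in Ctr1-null + BCS, 0.416, 0.601 and 0.475 CPM in Ctr1-null and 0.582, 0.838 and 0.483 CPM in wild type, so the chelated libraries were the 3 highest. Mmp25, a membrane protease of leukocytes, had 0.291, 0.208 and 0.299 CPM in Ctr1-null + BCS, 0.0595, 0.174 and 0.103 CPM in Ctr1-null and 0.104, 0.189 and 0.0744 CPM in wild type. Its counts were 16, 11 and 15 in Ctr1-null + BCS, 3, 9 and 5 in Ctr1-null and 5, 7 and 4 in wild type. Mmp25 passed the filter only through the chelated libraries. It had to be high there to be tested, so its direction is no evidence. Mmp17 had 0.619, 0.530 and 0.817 CPM in Ctr1-null + BCS, 0.793, 0.911 and 1.53 CPM in Ctr1-null and 1.10, 0.757 and 1.00 CPM in wild type, with overlap between the groups. DESeq2 called 3 of the genes, Mmp28 (adjusted p = 1.6e-04), Mmp15 (0.00131) and Adamts16 (0.0383), against 5.04% of the 14109 genes to which DESeq2 gave an adjusted p, and limma-voom called none. Without wild type replicate 1, which enters this comparison only through the shared estimate of spread and the filter, edgeR called Mmp28 (0.95, adjusted p = 0.0348) and no other of the genes, against 0.972% of all genes.

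The third comparison sets Ctr1-null against wild type, both without BCS. No clone number is given, so loss of Ctr1 cannot be told apart from other differences between the cells of these groups. Again none of the 31 genes passed the test in edgeR, against 0.0109% of all genes (2 genes). At an unadjusted p under 0.05 there were 5 against 17.6% of all genes, and 4 did not overlap between groups against 18.1% of all genes. The median log2 fold change was 0.26 over the 31 genes and 0.01 over all genes. Those with an unadjusted p under 0.05 were Adamts18 (1.64 ± 0.34), Mmp19 (1.23 ± 0.44) and Timp4 (1.82 ± 0.61), which were higher, and Mmp14 (-0.33 ± 0.09) and Adamts6 (-0.37 ± 0.16), which were lower. Timp4 passed the filter only through libraries without Ctr1, so its direction here is no evidence. Adamts6, a protease linked to the microfibril protein fibrillin, had 34.2, 34.3 and 29.2 CPM in Ctr1-null + BCS, 36.4, 36.7 and 23.6 CPM in Ctr1-null and 37.3, 42.6 and 44.7 CPM in wild type, and the 6 libraries without Ctr1 were the lowest. DESeq2 called Adamts18 (adjusted p = 2.5e-04) and Mmp14 (0.0105), against 7.01% of the 14823 genes to which DESeq2 gave an adjusted p, and limma-voom called none. Wild type replicate 1 had been picked for high values of genes of these families, so calls without it are not independent support. Without it, 7 of 32 tested genes were called, against 17.3% of all genes. They were Mmp3 (5.31, adjusted p = 0.00320), Mmp13 (5.13, adjusted p = 0.0265), Mmp19 (1.98, adjusted p = 0.00499), Adamts2 (2.66, adjusted p = 0.0401), Adamts12 (0.73, adjusted p = 0.0223) and Adamts18 (2.22, adjusted p = 0.00104), all higher, and Mmp14, which was lower (-0.34, adjusted p = 0.0437), each with its log2 fold change. The 3 comparisons share libraries, so their values for a gene are not independent of each other.

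The remaining Adamts genes passed the test in none of the 3 comparisons with all libraries. Adamts10, a relative of Adamts6, had 55.4, 54.6 and 82.7 CPM in Ctr1-null + BCS, 37.9, 54.6 and 73.5 CPM in Ctr1-null and 64.9, 32.6 and 34.6 CPM in wild type. Adamts12, which can cut the cartilage protein Comp, had 11.4, 13.1 and 15.9 CPM in Ctr1-null + BCS, 9.30, 8.45 and 11.5 CPM in Ctr1-null and 12.7, 5.78 and 5.91 CPM in wild type. In both genes wild type replicate 1 lay among the libraries without Ctr1 and the other 2 wild type libraries lay below them. The log2 fold change in Ctr1-null + BCS against wild type was 0.54 ± 0.31 for Adamts10 and 0.72 ± 0.29 for Adamts12. Adamts2, which removes the amino-terminal propeptide of fibrillar procollagens, had 3.84, 2.95 and 6.67 CPM in Ctr1-null + BCS, 1.07, 3.08 and 6.73 CPM in Ctr1-null and 4.01, 0.432 and 0.688 CPM in wild type, and its log2 fold change was 1.38 ± 0.82. Adamts14, which has the same activity, had a log2 fold change of 0.53 ± 0.28, and the aggrecanases Adamts4 and Adamts15 had 0.57 ± 0.28 and 0.52 ± 0.46. Adamts7 and Adamts17 had 0.82 ± 0.52 and 0.40 ± 0.41. Of the remaining Mmp genes, Mmp12 (macrophage elastase) had 0.00 ± 0.38, Mmp16 (membrane-type 3 Mmp) had -0.05 ± 0.10 and Mmp23 had 0.31 ± 0.25 in that comparison.

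Other genes of the system were read from 5 lists with 91 tested genes. In Ctr1-null + BCS against wild type 16 of them were called (17.6%), against 15.8% of all genes, so the share lay near that of all genes. The median log2 fold change there ran from -0.19 for genes that activate or restrain the proteases to 0.39 for Adamts-like genes, against 0.01 over all genes. Of 17 tested genes for other matrix proteases (Adam, Bmp1 and related genes), 2 rose and 2 fell in Ctr1-null + BCS against wild type. Adam8 rose by a log2 fold change of 1.16 ± 0.12 (adjusted p = 0.00320), with 26.8, 30.4 and 34.4 CPM in Ctr1-null + BCS and 12.3, 13.6 and 14.9 CPM in wild type, and Adam15 rose by 0.41 ± 0.08 (adjusted p = 0.0142). Adam12 (-1.04 ± 0.18, adjusted p = 0.00888) and Adam9 (-0.32 ± 0.07, adjusted p = 0.0196) fell. Of 13 tested genes that activate or restrain the proteases, 1 rose and 2 fell. The proprotein convertase Pcsk6, which can remove propeptides, rose by 1.20 ± 0.10 (adjusted p = 0.00139), with 79.5, 77.8 and 89.9 CPM in Ctr1-null + BCS, 52.8, 62.1 and 49.3 CPM in Ctr1-null and 36.3, 33.9 and 37.1 CPM in wild type. The 3 groups did not overlap. The convertase Furin fell by 0.47 on the log2 scale (SE 0.08, adjusted p = 0.00755) and so did Plau, the urokinase that makes plasmin, by 0.40 (SE 0.11, adjusted p = 0.0383). Of 5 tested Adamts-like genes, which have the matrix-binding repeats but no protease domain, Adamtsl3 fell by 0.53 (SE 0.09, adjusted p = 0.00781) and none rose. The calls of Adam8, Adam12, Pcsk6, Furin and Adamtsl3 held with any 1 library left out, with an adjusted p of at most 0.0430. Those of Adam15, Adam9 and Plau were lost without Ctr1-null + BCS replicate 3, wild type replicate 2 or wild type replicate 3. Adam9 and Plau were also lost without Ctr1-null + BCS replicate 1, and Plau without Ctr1-null replicate 2. Over these fits the adjusted p reached 0.0686 for Adam15, 0.0889 for Adam9 and 0.141 for Plau.

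Of 29 tested substrate genes, 2 rose and 2 fell in Ctr1-null + BCS against wild type. The elastic fibre protein elastin (Eln) rose by a log2 fold change of 2.53 ± 0.71 (adjusted p = 0.0407), with 1.67, 1.74 and 2.03 CPM in Ctr1-null + BCS and 0.520, 0.135 and 0.260 CPM in wild type, and Col6a1 rose by 0.82 ± 0.22 (adjusted p = 0.0376). The basement membrane collagens Col4a1 (-0.32 ± 0.08, adjusted p = 0.0256) and Col4a2 (-0.38 ± 0.08, adjusted p = 0.0152) fell. Of 27 tested genes for transcription factors and signals known to act on Mmp promoters, the AP-1 subunits Fosb (0.74 ± 0.21, adjusted p = 0.0408) and Jund (0.37 ± 0.11, adjusted p = 0.0488) rose, and Tgfb3 (-0.90 ± 0.18, adjusted p = 0.0150) and Nfkb1 (-0.57 ± 0.14, adjusted p = 0.0242) fell. All 8 of these calls were lost without Ctr1-null + BCS replicate 1 or 3 and without wild type replicate 2 or 3. Some were also lost without Ctr1-null + BCS replicate 2 (Col4a1, Col6a1 and Eln), Ctr1-null replicate 2 (Col6a1, Eln, Fosb and Jund), Ctr1-null replicate 3 (Fosb and Jund) or wild type replicate 1 (Jund). Over these fits the highest adjusted p ran from 0.0601 for Tgfb3 to 0.183 for Jund, and no log2 fold change of the 16 list genes changed sign.

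In the other 2 comparisons edgeR called no gene of the 5 lists with all libraries. Of the 91 list genes, 12 (13.2%) had an unadjusted p under 0.05 in Ctr1-null + BCS against Ctr1-null, against 14.7% of all genes. DESeq2 called 3 of the 81 list genes to which it gave an adjusted p (3.70%, against 5.04% of all such genes), and limma-voom called 0. In Ctr1-null against wild type 32 (35.2%) had an unadjusted p under 0.05, against 17.6% of all genes. There DESeq2 called 15 of 83 list genes (18.1%, against 7.01% of all such genes), and limma-voom called 0. The number of list genes called by edgeR changed most without wild type replicate 1. It was then 40 (44.0%, against 31.0% of all genes) in Ctr1-null + BCS against wild type, 2 (2.20%, against 0.972%) in Ctr1-null + BCS against Ctr1-null and 34 (37.4%, against 17.3%) in Ctr1-null against wild type. In the first of these comparisons it was 5 without Ctr1-null + BCS replicate 3, wild type replicate 2 or wild type replicate 3, and 6 without Ctr1-null + BCS replicate 1. Pcsk6 had 0.59 ± 0.10 in Ctr1-null + BCS against Ctr1-null (adjusted p = 0.0834) and 0.61 ± 0.10 in Ctr1-null against wild type (adjusted p = 0.0707), and Adam8 had 0.59 ± 0.12 (adjusted p = 0.0952) and 0.58 ± 0.12 (adjusted p = 0.0988).

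Other genes lie within or across several of these loci on the opposite strand. Timp3 and Timp4 share 1733 and 90 bp of exon with the synapsin genes Syn3 and Syn2, which averaged 0.347 and 0.384 CPM, and Timp1 lies inside Syn1 without shared exons. Against the 230 CPM of Timp3 the Syn3 level is small, but Syn2 exceeded the 0.190 CPM of Timp4, and its log2 fold change in Ctr1-null + BCS against wild type was 1.36 ± 0.48 (adjusted p = 0.0826). Mmp28 shares 466 bp with 1700020L24Rik, which averaged 0.573 CPM, against 3.85 CPM for Mmp28. That gene had a log2 fold change of 1.58 ± 0.47 in the same comparison (adjusted p = 0.0501). Adamts9 shares 1381 bp with A730049H05Rik, which averaged 0.0155 CPM.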

How the data were processed

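RNA libraries of 9 samples were made with an Illumina TruSeq RNA kit, per the labels' protocols. Per the submitters' processing notes, FastQC, STAR, Salmon and DESeq2 were used with GRCm38, and neither versions nor roles are given. The use of strand in counting is not given in the sources used here. The authors deposited rounded estimated counts per gene, not normalised, which were tested here. A second table deposited by the authors holds scaled signal values, the counts over a factor per gene and sample, used only as an alternative scaling. GENCODE M21 (GRCm38) named 52566 of 52661 rows by their Ensembl identifier.

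The main test was edgeR's quasi-likelihood fit (edgeR 4.0.16 in R 4.3.3, TMM scaling) to the 9 libraries in 3 groups (6 residual degrees of freedom, common biological coefficient of variation 0.169) after filterByExpr (minimum count 10, minimum total 15), which left 18408 genes. A gene is called at a Benjamini-Hochberg adjusted p under 0.05 over all tested genes, 2-sided. SE values were derived from the F statistic. Levels per kb use all exons of a gene. A library was said to stand apart where CPM + 0.5 differed by more than 2-fold from both others of its group. The fit was tested on simulated counts.

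Library totals are in the report, and floors and counting intervals cover counting error only, because the labels name no molecular identifiers that would tell copies apart. The members and gene lists were chosen with earlier results of these data known. From each list up to 4 called genes in each direction are named. Only Adam8, Pcsk6 and Eln of these are given by library, Adam8 and Eln without their Ctr1-null values. Members given by library are those called or with an unadjusted p under 0.05 in any comparison. The 3 highest per kb in each family and the 3 largest changes in each comparison are also given so. Adamts2 was added after its values were seen, as were the account without wild type replicate 1 and the list counts with each library left out. Alternatives were other scalings, other filters, DESeq2 1.42.0, limma-voom (limma 3.58.1), a fit of the compared groups only, a replicate block and leaving out each library. Figures were drawn with matplotlib 3.10.9.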

Additional observations from a re-analysis of the deposited data

How the results depend on the processing

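Genes called over the whole table were the values that moved most. In Ctr1-null against wild type the count was 2 in the edgeR fit, 4 with DESeq2's size factors, with library size only, with the authors' factors or with at least 1 CPM in 3 samples, 6 by limma-voom, 265 without the filter, 1039 by DESeq2 and 1 with only the compared groups. It was 1 to 3254 with a library left out, the highest without wild type replicate 1. In Ctr1-null + BCS against Ctr1-null the count was 10, with 114 without the filter, 711 by DESeq2 and 0 to 183 with a library left out. For Ctr1-null + BCS against wild type it was 2916, with 568 to 5840 with a library left out.

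Among the 31 Mmp, Timp and Adamts genes, 0 were called in Ctr1-null against wild type, against 0.0109% of all genes. Without the filter it was 1 of 43 (Adamts18), against 265 of 34933 genes. DESeq2 called 2, against 7.01% of genes with an adjusted p. With a library left out it was 0 to 7, the highest of 32 without wild type replicate 1 (17.3% of all genes). For Ctr1-null + BCS against Ctr1-null 0 were called, against 0.0543% of all genes. Without the filter it was 1 of 43 (Mmp15), against 114 of 34933 genes. DESeq2 called 3, against 5.04% of genes with an adjusted p. With a library left out it was 0 to 1, the highest of 32 without wild type replicate 1 (0.972% of all genes). For Ctr1-null + BCS against wild type 7 were called (22.6%), against 15.8% of all genes. With a library left out it was 1 to 12. The 1 was without wild type replicate 3 (3.01% of all genes), and the 12 of 32 without wild type replicate 1 (31.0% of all genes). Timp4 missed the threshold in that comparison with the authors' factors (log2 fold change 1.59, adjusted p = 0.124) and by limma-voom (1.88, adjusted p = 0.0612), and was too low to test under the stricter filter or with only the compared groups. The causes were not tested.

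With the replicate number as a block, 1 gene was called in Ctr1-null against wild type, 2 in Ctr1-null + BCS against Ctr1-null and 1543 in Ctr1-null + BCS against wild type. In the last comparison 4 of the 31 genes were then called, against 1543 of all 18408 genes. Adamts9 (1.65, adjusted p = 0.0510), Timp3 (0.97, adjusted p = 0.0809) and Timp4 (2.05, adjusted p = 0.0648) were not. The correlation of deviations from the group means ranged from -0.32 to 0.28 between libraries of the same number. Between libraries of different number in different groups it ranged from -0.29 to 0.41. The numbers thus gave no sign of pairing, but these correlations cannot show whether the libraries were paired. Under the block the log2 fold change of Mmp3 in Ctr1-null + BCS against wild type was 1.05 and that of Mmp13 was 0.48, the opposite sign to the fit without it.

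Signs of other uncalled log2 fold changes also turned. In Ctr1-null + BCS against wild type Mmp3 was 1.60 and Mmp13 was 1.14 by limma-voom, and Mmp2 was 0.023 with library size only. With a library left out there, Adamts5 ran from -0.10 to 0.21, Mmp2 from -0.15 to 0.0070, Mmp3 from -0.91 to 3.49 and Mmp13 from -1.19 to 3.13. In Ctr1-null + BCS against Ctr1-null Adamts18 was 0.018 with library size only, and Adamts6 was -0.021 and Timp4 -0.82 with the authors' factors. With a library left out there, Adamts10 ran from -0.012 to 0.47, Adamts18 from -0.19 to 0.10, Adamts6 from -0.17 to 0.12 and Timp4 from -0.076 to 0.58. In Ctr1-null against wild type Mmp15 ran from -0.029 to 0.33, Mmp17 from -0.17 to 0.34, Mmp25 from -0.52 to 0.34 and Timp1 from -0.20 to 0.18. Depth limits Timp4, Mmp25, Mmp13, Mmp12, Adamts15 and Adamts17, which had under 20 counts in several libraries, and the 12 genes too low to test.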
